A study of Mus musculus with 132 samples.

Results

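The genes described here are 10 genes of pyrimidine salvage and synthesis, taken by name from a table of 32245 genes in single cells of mouse embryos: Upp1, Uck1, Uck2, Umps, Cad, Dhodh, Tk1, Tyms, Pnp and Dck. All 10 were in the table, and all 10 were among the 8277 genes with a mean of at least 10 counts in 1000000 (CPM) over the groups of cells. The study asked what a synthetic copy of a microRNA does to early mouse embryos, and single cells were sequenced with Smart-seq2, a method that reads polyadenylated RNA along the whole transcript and marks neither molecules nor strand.

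Embryos came from C57BL/6 x DBA F1 females mated with males of the same cross. They were collected at the 2-cell stage and grown in KSOM medium that held either a mimic of miR-381-3p or a scrambled negative control mimic, at 5 or 10 µM. The higher dose was given to embryos taken at the 8-cell stage and the lower to those taken at the 32-cell stage, so stage and dose cannot be told apart. Cells were isolated from 8-cell embryos at embryonic day 2.5 (30 control and 24 mimic cells) and from 32-cell embryos at embryonic day 3.5 (39 control and 39 mimic cells). No group was left without an added mimic, since the control cells had received the scrambled one.

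Each group was treated as 1 sample, because cells were taken from 3 to 5 embryos per group and no label says which embryo a cell came from. Values below are pooled CPM, the summed counts of a gene in a group over the summed counts of all genes without the mitochondrial ones. Their 95% exact Poisson intervals, and the exact binomial (Clopper-Pearson) intervals on shares of cells, cover counting error only. Differences are of log2(pooled CPM + 1), and "past 2-fold" means a difference of at least 1 in size. No test between groups was possible, and the share of all 8277 genes past 2-fold in the same comparison is printed as background instead. Fewer transcripts per cell and fewer cells with the transcript cannot be told apart in a pooled level, so the number of cells with a count is given too.

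Total counts per cell ran from 544866 to 3461022, and 3 counts in a cell of median depth were worth 2.31 to 2.55 CPM. The summed level of 9 trophectoderm markers rose from 363 CPM in 8-cell control cells to 5939 CPM in 32-cell control cells, as the stages were labelled. Markers of cumulus cells summed to at most 0.657 CPM in any group and red blood cell globins to at most 0.762 CPM. Transcripts of the sex chromosomes split the cells unevenly: all 39 control cells of the 32-cell stage had more Y-linked counts than Xist counts, and all 39 mimic cells had Xist counts with fewer Y-linked ones. At the 8-cell stage, 23 control and 14 mimic cells had Xist counts, 7 and 8 had more Y-linked counts, and 2 mimic cells had neither. Sex of the embryo and treatment therefore cannot be told apart at the 32-cell stage. All 10 genes lie on autosomes. Within each group the numbers in the cell titles formed runs, cut where a number jumped by more than 5: 28 and 2 cells of the 8-cell control, 24 of the 8-cell mimic, 24 and 15 of the 32-cell control, and 18, 12 and 9 of the 32-cell mimic. Some runs of the 2 treatments follow each other without a gap in number, so the border between them is that of the groups. The titles also carry a suffix that goes wholly with stage, and the numbers 63 to 86 recur in the 8-cell mimic and the 32-cell control, which differ in both stage and treatment. What a run or a number stands for is not stated, and levels are also given by run.

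Cells make pyrimidine nucleotides along 2 routes. In de novo synthesis, the large protein Cad carries out the opening 3 reactions, from carbamoyl phosphate to dihydroorotate, Dhodh oxidises dihydroorotate in the mitochondrion, and Umps turns orotate into UMP. In salvage, kinases put a phosphate on nucleosides taken up or released inside the cell: Uck1 and Uck2 act on uridine and cytidine, Tk1 on thymidine and deoxyuridine, and Dck on deoxycytidine and the deoxy forms of adenosine and guanosine. Upp1 works in the other direction and splits uridine into uracil and ribose 1-phosphate, as Pnp does for inosine and guanosine. Tyms methylates dUMP to dTMP, the DNA precursor that Tk1 supplies by salvage. Preimplantation embryos copy their genome in rapid divisions without growing, and early cleavage stages rely in part on stores of the egg.

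The mimic was designed after miR-381-3p, whose natural mature sequence is encoded at chr12:109726870-109726891 (GRCm38, plus strand). Its mature sequence from RefSeq is shown with the seed (bases 2 to 8) in capitals, since these letters set which sites were looked for.
mmu-miR-381-3p: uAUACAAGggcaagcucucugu
The 3′ UTR of each of the 10 genes (the longest one in GENCODE M21, GRCm38) was searched for the seed's complement as an 8-mer (CTTGTATA), as either 7-mer (CTTGTAT or TTGTATA) and as the 6-mer core TTGTAT. None of the 10 held an 8-mer or a 7-mer, against 21.5% of 20741 genes with an annotated 3′ UTR and 26.4% of the 8074 such genes past the level filter. Windows ranged from 70 bases in Upp1 and 284 in Cad to 3499 in Uck2, and nothing was read from a missing match. The 6-mer core was found in 2 of the 10, once in Umps and in 2 places in Dck, and 28.2% of all 3′ UTRs held at least 1 such bare core. These 3 sites are shown with the core in capitals, on the transcript's strand:
Umps, in a 3′ UTR of 1981 bases, chr16:33956656-33956661, minus strand: actctgcagcaTTGTATcatggtctaac
Dck, base 1261 of 2035, chr5:88782507-88782512, plus strand: tctctttagctTTGTATgaggtgagaca
Dck, base 1517 of 2035, chr5:88782763-88782768, plus strand: cattgcatataTTGTATcatgggaatgt

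The genes differed widely in level once their length was taken into account. Per kb of the longest coding transcript, Tyms (143.6 CPM per kb; 3163 bases; chr5:30058202-30073617, minus strand) and Tk1 (139.1; 1440 bases; chr11:117815526-117826092, minus strand) stood highest in 8-cell control cells. Umps followed with 76.9 CPM per kb (3484 bases; chr16:33954782-33967038, minus strand) and Cad with 37.6 (7137 bases in 44 exons; chr5:31054780-31078479, plus strand). Uck2 (26.9 CPM per kb; chr1:167222883-167285320, minus strand), Dhodh (26.58; chr8:109591343-109608673, minus strand) and Pnp (26.03; chr14:50931082-50965237, plus strand) lay close together. Dck (17.2 CPM per kb; chr5:88764996-88783281, plus strand), Upp1 (6.48; chr11:9118103-9136170, plus strand) and Uck1 (3.08; chr2:32255002-32260159, minus strand) were lowest. In 32-cell control cells, Upp1 stood second at 81.5 CPM per kb, under Tk1 at 101.8, and Cad was the lowest of the 10 at 10.26. With the length of all annotated exons in place of the longest coding transcript, a setting chosen after the data were seen, Upp1 came first in 32-cell control cells (53.1 CPM per kb) and Tk1 lay below Umps and Tyms as well (28.2). By that length Umps came first in 8-cell control cells (76.9 CPM per kb), before Tyms (74.6) and Tk1 (38.5), and Dhodh (8.57) lay apart from Uck2 (23.3) and Pnp (19.2).

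**Figure D1:**
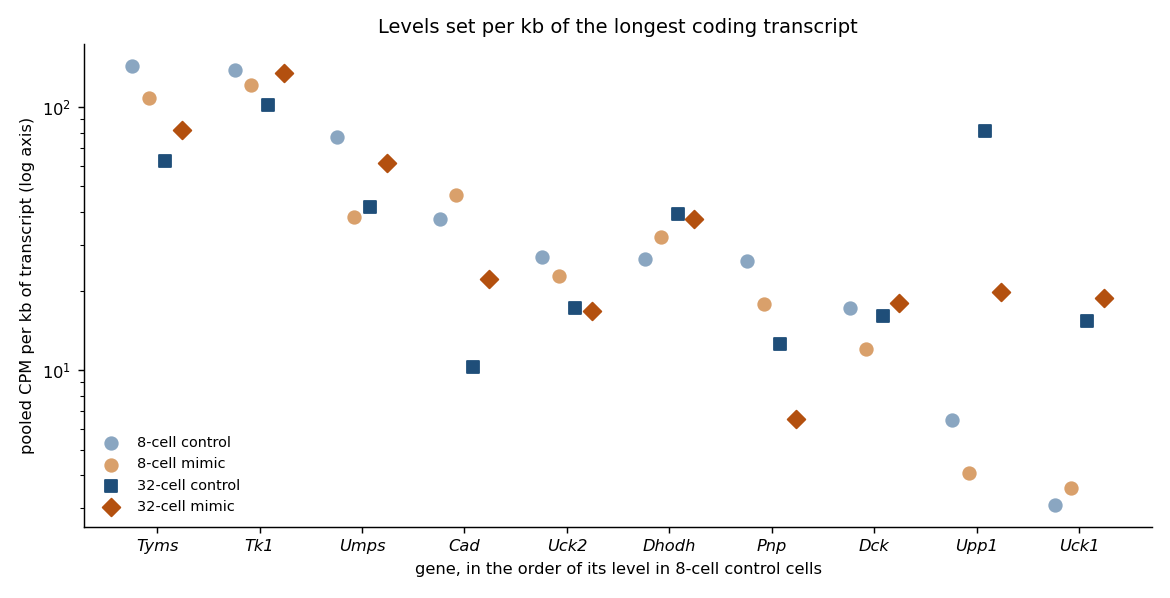
Pooled CPM per kb of the longest coding transcript (log axis) for each of the 10 genes, in the order of their level in 8-cell control cells, with a point for each of the 4 groups. Upp1 goes from 6.48 in 8-cell control cells to 81.5 in 32-cell control cells, while Cad goes from 37.6 to 10.26.

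Some of these levels rest on reads that could be shared. Pnp and its neighbour Pnp2 were identical at 98.2% of 867 aligned coding bases, so reads may have been split between them. Pnp2 was counted at 9.15 CPM in 8-cell control, 2.07 in 8-cell mimic, 0.668 in 32-cell control and 0.319 in 32-cell mimic cells, each below Pnp. The Pnp exons also share 718 bases with a predicted gene on the same strand that was not analysed here. Tk1 shares 83 exonic bases with Afmid on the opposite strand, and Afmid itself went from 79 CPM in 8-cell control to 15.4 CPM in 32-cell control cells. Uck1 and Pomt1 meet over 4 bases on opposite strands, and Pomt1 went from 0.109 to 23.7 CPM between the same groups. Uck1 and Uck2 were identical at 75.4% of aligned coding bases.

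Upp1, the uridine phosphorylase, had the widest difference of the 10 genes between the stages in control cells and between the treatments at the 32-cell stage. In 8-cell control cells it ran from 0 CPM in the lowest and the median cell to 89.3 CPM in the highest, with a count in 4 of 30 cells. In 8-cell mimic cells it ran from 0, again also the median, to 53.6 CPM, with a count in 3 of 24. In 32-cell control cells the lowest was 0, the median 68.3 and the highest 470 CPM, and 29 of 39 cells had a count (74.4%, interval 57.87 to 86.96%). In 32-cell mimic cells the lowest and median were 0 and the highest 156.1 CPM, with a count in 15 of 39 (38.5%, interval 23.4 to 55.4%). Most 8-cell cells and most 32-cell mimic cells thus had no Upp1 count, most 32-cell control cells had one, and the ranges of all 4 groups overlapped at 0. The cells with a count were the same in number after every cell was thinned to 522178 counts.

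Pooled, Upp1 stood at 8.28 CPM (interval 7.37 to 9.26) in 8-cell control, 5.21 (4.43 to 6.08) in 8-cell mimic, 104.1 (101.4 to 106.8) in 32-cell control and 25.3 (23.9 to 26.6) in 32-cell mimic cells. Between the stages it rose 12.6 times in control cells (interval 11.2 to 14.2; log2 3.502) and 4.85 times in mimic cells (4.12 to 5.75; log2 2.08). The size of the control value depended on the 8-cell cells: log2 was 2.48 against those with more Y-linked counts, as all 32-cell control cells had, and 6.715 against the run of 2 cells, which held no Upp1 count. In mimic cells the alternatives ran from 1.21 to 2.64. At the 32-cell stage the mimic level was 0.243 of the control level (interval 0.229 to 0.258; log2 -2.00), which ranked 56 from the lowest of 8277 genes. All 6 pairs of a mimic run with a control run had less Upp1 in the mimic run, by -2.55 to -1.41 in log2. By run, the control cells had 110 and 95.3 CPM and the mimic cells 35.1, 20.4 and 17.9 CPM, which do not overlap. Over 13 alternative settings the log2 difference stayed between -2.83 and -1.69. The groups also differed in makeup, with 25 of 39 control and 13 of 39 mimic cells in the inner-cell-mass-like class described further on, and in sex transcripts as given above.

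At the 8-cell stage the Upp1 difference was -0.58 in log2 and rested on 4 and 3 cells. It was -1.452 in cells with more Y-linked counts, and 2.634 against the run of 2 control cells, which held no Upp1 count. The highest cell alone held 36.2% of the Upp1 counts of the control group and 47.8% of those of the mimic group. Among cells with Xist counts, Upp1 was at 4.25 CPM without and 5.72 CPM with the mimic, and among cells with more Y-linked counts at 17.8 and 5.88 CPM, so the direction was not the same in the 2 kinds of cell.

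**Figure D2:**
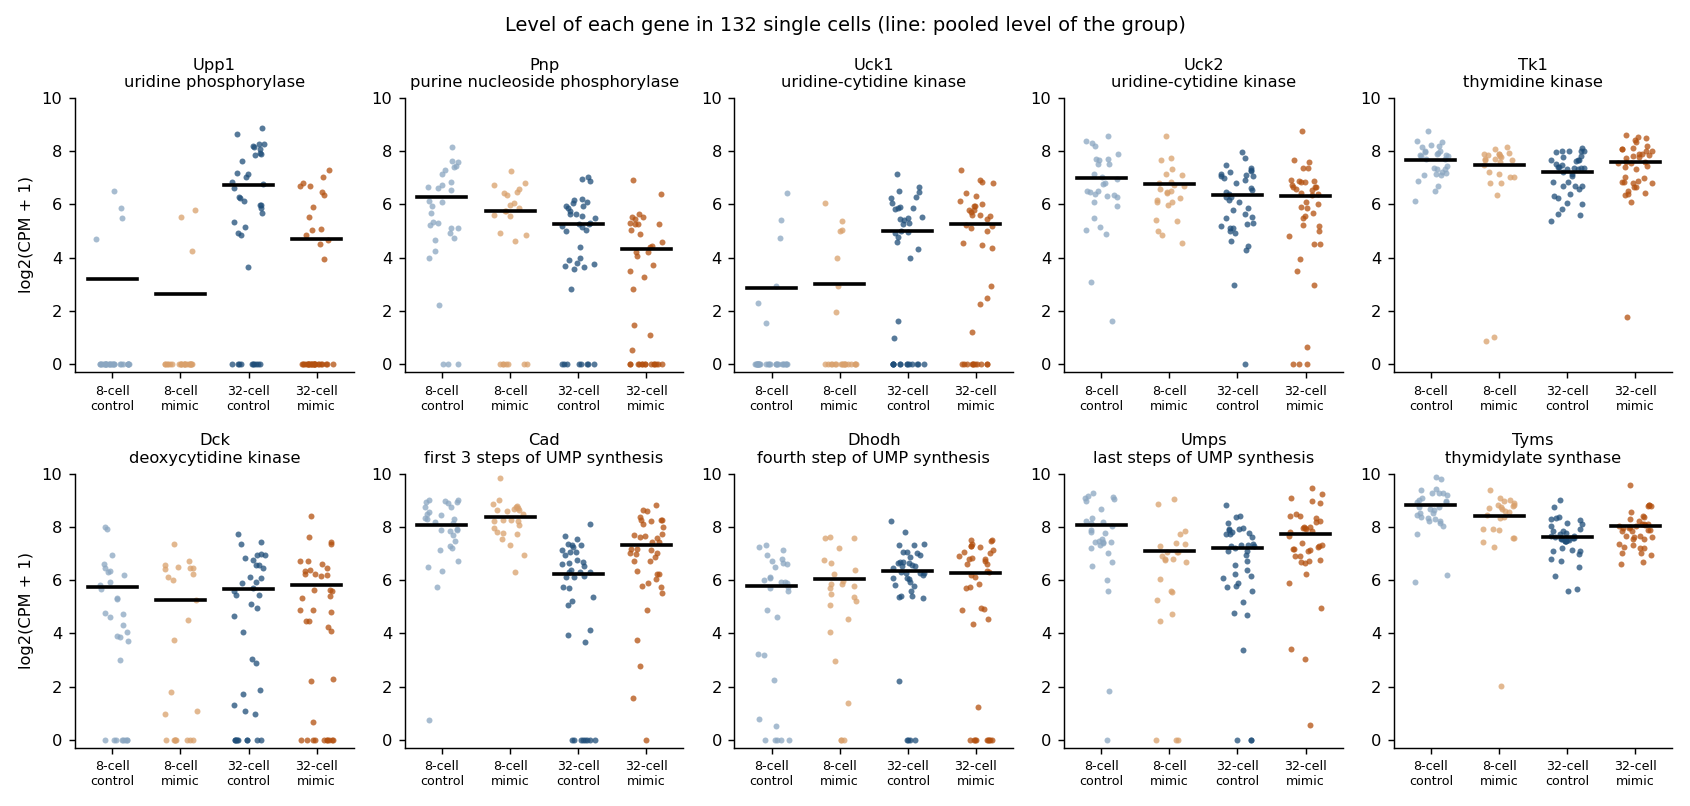
Level of each of the 10 genes as log2(CPM + 1) in each cell (points), by stage and treatment, with the pooled level of the group as a black line. Upp1 and Uck1 were without a count in most 8-cell cells, and Cad points lie lower at the 32-cell stage, most of all in control cells.

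Pnp, the purine nucleoside phosphorylase, moved the other way between the stages. Its pooled level was 76.6 CPM in 8-cell control, 52.5 in 8-cell mimic, 37.1 in 32-cell control and 19.1 in 32-cell mimic cells, with counting intervals that did not overlap. The median cell was at 55.9 CPM in 8-cell control, 49.96 in 8-cell mimic, 34.4 in 32-cell control and 10.2 in 32-cell mimic cells, and the highest at 281.6, 153.1, 128.9 and 118.4 CPM. Pnp fell with stage in control cells (log2 -1.03) and in mimic cells (log2 -1.41), both past 2-fold. The control value was past 2-fold in 9 of 14 alternatives and ran from -2.25 to 0.053, and the mimic value was 0.159 when only 8-cell cells with more Y-linked counts were used. The mimic comparison at the 32-cell stage gave -0.92, short of 2-fold, and was decided by the control run: that of 24 cells had 51.7 CPM and that of 15 cells 15.3 CPM, while the mimic runs had 15.0, 25.1 and 18.1 CPM. Without the control run of 24 cells the log2 difference was 0.30, and without the run of 15 cells -1.39. At the 8-cell stage the difference was -0.54, but -2.399 in cells with more Y-linked counts and 0.545 with the run of 2 control cells alone.

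Uck1, a uridine-cytidine kinase, rose between the stages in both treatments. It had a count in 6 of 30 8-cell control, 7 of 24 8-cell mimic, 26 of 39 32-cell control and 28 of 39 32-cell mimic cells. The lowest cell was at 0 CPM in every group, and the median at 0, 0, 29.6 and 33.9 CPM in the same order. Pooled, it went from 6.18 to 30.9 CPM in control cells (log2 2.15) and from 7.15 to 37.7 CPM in mimic cells (log2 2.25). The 8-cell control cells with more Y-linked counts held 0 Uck1 counts, so the control value of 4.997 against them was set by the pseudocount. The mimic value ran from 1.48 to 3.13 over the alternatives. With the run of 2 cells alone as the 8-cell control, the control value turned to -0.395. Its treatment difference at the 8-cell stage was 0.18, but -2.365 with that run alone and 0.931 without it. In cells with more Y-linked counts it was 2.148, again set by the pseudocount. The treatment difference at the 32-cell stage was 0.28, and 3 of 6 run pairs lay above 0. The small run of 2 cells held much of the 8-cell control signal, at 41.0 CPM against 3.27 CPM in the run of 28 cells, and a single cell held 51.1% of the group's counts.

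Uck2, the other uridine-cytidine kinase, was detected in nearly all cells. A count was found in 30 of 30, 24 of 24, 38 of 39 and 36 of 39 cells, in the order used above. Median cells were at 99.8, 88.4, 75.8 and 67.7 CPM, and the ranges overlapped from 22.7 CPM, the lowest 8-cell mimic cell, up to 250.7 CPM, the highest 32-cell control cell. The pooled level was 127.5 CPM in 8-cell control and 108.3 in 8-cell mimic cells, and 81.7 and 79.4 CPM in 32-cell control and mimic cells, whose counting intervals overlapped. None of its 4 stage or treatment differences was past 2-fold (log2 -0.64 to -0.04). Against 8-cell cells with more Y-linked counts the control stage difference was -1.062, past 2-fold, and among such cells the 8-cell treatment difference was -1.258. In pooled CPM per kb Uck2 was above Uck1 in 8-cell control (26.9 against 3.08) and 32-cell control cells (17.3 against 15.4). In 32-cell mimic cells the order turned with the length used (16.8 against 18.8 by the longest coding transcript, 14.5 against 13.7 by all exons).

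Tk1, the thymidine kinase of dividing cells, had a count in every cell. Its lowest, median and highest cells were at 69.7, 217.5 and 434 CPM in 8-cell control and at 0.836, 204 and 282 CPM in 8-cell mimic cells. They were at 40.5, 158.6 and 275 CPM in 32-cell control and at 2.39, 188.0 and 387 CPM in 32-cell mimic cells. Pooled levels of 200.3, 175.6, 146.6 and 194.4 CPM gave no difference past 2-fold, and the counting intervals of 8-cell control and 32-cell mimic cells overlapped. The mimic was higher in 5 of 6 run pairs at the 32-cell stage (log2 0.41 between the groups).

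Dck, the deoxycytidine kinase, was found in 22 of 30, 16 of 24, 30 of 39 and 29 of 39 cells. Median cells had 24.2, 16.9, 33.3 and 28.5 CPM, and the highest 256.2, 162.3, 212.8 and 334.4 CPM. Pooled levels of 53.03, 37.14, 49.46 and 55.3 CPM differed by -0.50 to 0.56 in log2 and none was past 2-fold. The 8-cell cells used decided these values: against those with more Y-linked counts the control stage difference was -1.081, and with the run of 2 cells alone it was 1.879, while the 8-cell treatment difference was -1.011 and 1.475. The runs of 32-cell cells spread as widely as any groups did, from 23.7 to 83.1 CPM within the mimic and from 35.6 to 70.1 CPM within the control.

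Cad, which opens de novo synthesis, fell between the stages and stood higher with the mimic at the 32-cell stage. In 8-cell control cells the lowest, median and highest cell were at 0.691, 285 and 515 CPM, and in 8-cell mimic cells at 77.3, 302 and 901 CPM. In 32-cell control cells they were at 0, 78.1 and 273.5 CPM, and in 32-cell mimic cells at 0, 138 and 452 CPM. Not 1 of the 39 32-cell control cells reached the median of the 8-cell control cells, and 28 of 30 8-cell control cells lay above the median of the 32-cell control cells, though the ranges overlapped. The pooled level fell from 268 to 73.2 CPM in control cells (log2 -1.86) and from 332 to 158.1 CPM in mimic cells (log2 -1.07). The control value was 0.023 when the run of 2 cells alone stood for the 8-cell stage. The mimic value was past 2-fold in 11 of 13 alternatives and was -0.82 without the mimic run of 9 cells.

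At the 32-cell stage Cad was 2.16 times as high in mimic as in control cells (interval 2.08 to 2.24; log2 1.10), with 27 of 39 mimic cells above the control median and 8 of 39 control cells above the mimic median. All 6 run pairs had more Cad in the mimic run (log2 0.24 to 1.57). The control runs had 71.7 and 74.3 CPM and the mimic runs 164.8, 215.1 and 87.8 CPM, so the mimic run of 9 cells lay closest to the control. The difference fell short of 2-fold without the mimic run of 12 cells (0.83) and when all cells were thinned to 1 depth, and the 13 alternatives ran from 0.83 to 1.63. At the 8-cell stage it was 0.31, and 15 of 24 mimic cells lay above the control median. With the run of 2 control cells alone the 8-cell difference was 2.19.

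Dhodh, the mitochondrial enzyme of the route, had smaller pooled differences between stages than Cad and Umps. The median cell was at 55.5, 53.0, 76.2 and 72.4 CPM, the lowest at 0 in every group and the highest at 160, 194, 299 and 183 CPM. Pooled levels were 54.2, 65.6, 80.2 and 76.8 CPM, and the counting intervals of the last 2 overlapped. No stage or treatment difference was past 2-fold, the widest being 0.56 between the stages in control cells. That value was 1.214 by the mean log2 over cells and -0.02 with the run of 2 cells alone as the 8-cell control, and the 8-cell treatment difference was 1.18 in cells with more Y-linked counts.

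Umps, which completes UMP, split the treatments at the 8-cell stage. The lowest, median and highest cells were at 0, 200.4 and 618 CPM in 8-cell control cells and at 0, 108.8 and 530 CPM in 8-cell mimic cells. In 32-cell control cells they were at 0, 136 and 446 CPM, and in 32-cell mimic cells at 0.456, 168.8 and 699 CPM. Pooled levels were 267.9 CPM in 8-cell control, 213.9 CPM in 32-cell mimic and 133.9 CPM in 8-cell mimic cells, with 32-cell control cells between the last 2. The 8-cell difference of -0.996 lay just short of the limit of 2-fold, and 24 of 30 control cells were above the mimic median while 4 of 24 mimic cells were above the control median. It was seen both in cells with Xist counts (190.0 against 118.5 CPM) and in cells with more Y-linked counts (453 against 196 CPM). The 2 control cells of the small run had 73.5 CPM, below the mimic group, and without the run of 28 cells the difference was 0.86. At the 32-cell stage the mimic was higher by 0.56 in log2, with 5 of 6 run pairs above 0, and the stage differences were -0.88 in control and 0.67 in mimic cells, none of them past 2-fold. The control stage value was -1.637 against 8-cell cells with more Y-linked counts and 0.971 with the run of 2 cells alone, and the mimic one was 1.285 by the mean log2 over cells.

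Tyms, the thymidylate synthase, had a count in every cell and the highest pooled CPM of the 10 in all 4 groups. Lowest, median and highest cells were at 60.5, 416 and 926 CPM in 8-cell control and at 3.03, 383 and 676 CPM in 8-cell mimic cells, then at 47.2, 188 and 514.5 CPM in 32-cell control and at 96.9, 235 and 761 CPM in 32-cell mimic cells. The pooled level fell from 454 to 198 CPM in control cells (log2 -1.19), while in mimic cells it went from 342 to 258 CPM (log2 -0.40), short of 2-fold. Against 8-cell cells with more Y-linked counts the control value was -0.724, also short of 2-fold. The difference between the 2 stage comparisons was not tested. The mimic was lower at the 8-cell stage (-0.41, and -1.199 with the run of 2 control cells alone). It was higher at the 32-cell stage (0.38, and above 0 in 6 of 6 run pairs, 0.13 to 0.64). At the 8-cell stage the direction turned with sex transcripts, with 507 against 330 CPM in cells with Xist counts and 328 against 394 CPM in cells with more Y-linked counts.

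**Figure D3:**
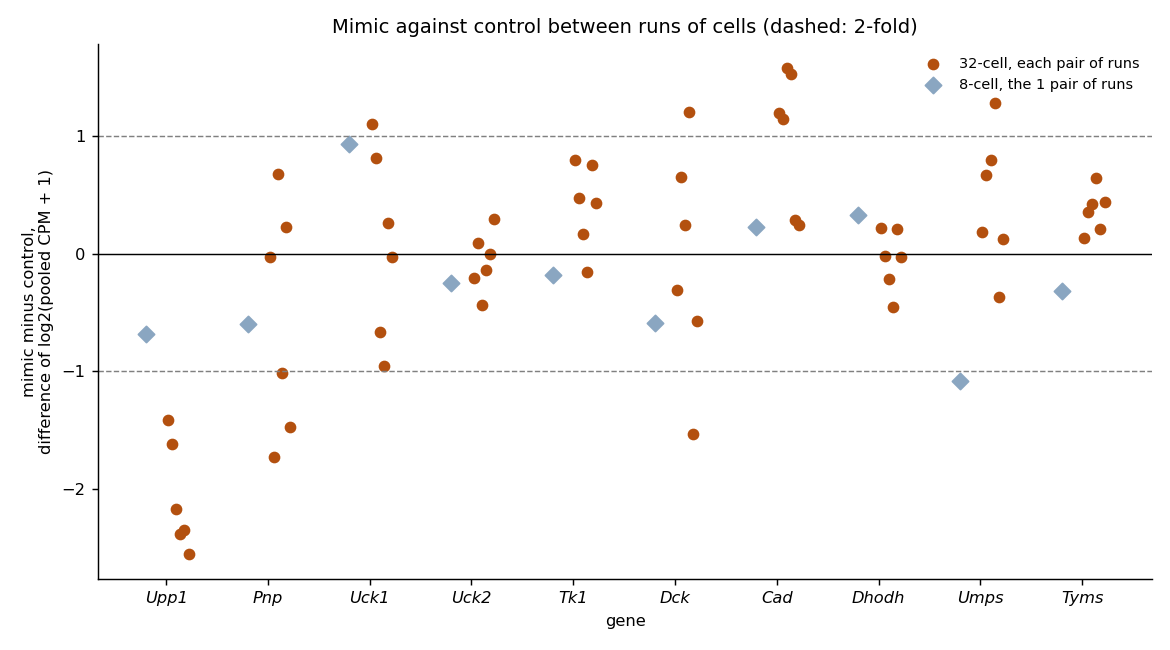
Difference of log2(pooled CPM + 1), mimic minus control, for each of the 10 genes between runs of cells: the single pair of runs with 5 cells or more at the 8-cell stage (diamonds) and all 6 pairs at the 32-cell stage (circles). All 6 circles lie below 0 for Upp1 and above 0 for Cad and Tyms, and they fall on both sides of 0 for the other 7 genes.

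Counted together, the stage comparison in control cells put 2 of the 10 genes past 2-fold higher (Upp1 and Uck1), where 29% of all genes were, and 3 past 2-fold lower (Cad, Tyms and Pnp), where 19.2% were. Between the mimic groups it was 2 higher (Upp1 and Uck1; 28.4% of all genes) and 2 lower (Cad and Pnp; 17.9%). The median difference of the 10 genes was -0.54 in control and 0.19 in mimic cells, against 0.20 over all genes in both. The mimic comparison at the 8-cell stage put 0 of 10 past 2-fold, against 8.28% of all genes higher and 8.2% lower. At the 32-cell stage it put 1 higher (Cad; 7.48% of all genes) and 1 lower (Upp1; 5.35%), with a median of 0.22 against 0.02 over all genes. With 10 genes, these shares are read as near those of all genes. Upp1 and Uck1 were under 10 CPM in both 8-cell groups and so passed the level filter through the 32-cell groups. The stage and treatment comparisons share groups, so they do not repeat each other independently.

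Cells of the 32-cell stage were then divided into classes by clustering without the 10 genes, the wider lists and the markers. The cluster of 38 cells had all 9 markers of the inner cell mass (ICM, the cells inside the blastocyst) higher and is called ICM-like. The other 40 cells had all 9 markers of the trophectoderm (TE, its outer layer) higher and are called TE-like. Control cells were 25 ICM-like and 14 TE-like, and mimic cells 13 and 26. A set of genes that marks the classes is no finding, and Upp1 was kept out of the clustering, but all genes come from the same cells, so the values are descriptions. The border between the classes was less certain in mimic cells: by marker score, 5 of the 26 TE-like mimic cells fell in the ICM-like class and 1 of 13 the other way, giving 17 and 22, while no control cell changed class. The summed TE markers of single TE-like cells went down to 858.4 CPM in mimic cells, against 8931 CPM in control cells.

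Upp1 was mostly an ICM-like transcript in both treatments. The study had already named Upp1, with Spp1, among the lineage markers of these cells. In ICM-like control cells the lowest, median and highest cell were at 0, 140 and 470 CPM, and 23 of 25 had a count. In TE-like control cells they were at 0, 0 and 74.8 CPM, and 6 of 14 had a count. In ICM-like mimic cells they were at 0, 81.1 and 156.1 CPM with a count in 10 of 13, and in TE-like mimic cells at 0, 0 and 58.7 CPM with a count in 5 of 26. Of the 237 Upp1 counts in TE-like mimic cells, 45.6% lay in 2 of the 5 cells that changed class by marker score. No TE-like cell reached the median of the ICM-like cells of its treatment, although all 4 ranges began at 0.

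The pooled Upp1 level was 168.6 CPM in ICM-like and 17.8 CPM in TE-like control cells (9.498 times; log2 3.18). In mimic cells it was 69.6 and 6.35 CPM (11.0 times, 9.52 to 12.7; log2 3.27). Upp1 ranked 85 from the highest of all 8277 genes in the control comparison and 22 in the mimic one. It was the single member of the 10 past 2-fold higher in ICM-like cells in each treatment, where 13.3% (control) and 6.9% (mimic) of all genes were, and 0 of the 10 were past 2-fold lower, against 9.53% and 10.3%.

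Within each class, Upp1 was again lower in mimic cells. In ICM-like cells the ratio of mimic to control was 0.413 (interval 0.387 to 0.441; log2 -1.26). 1 of 13 mimic cells lay above the control median and 17 of 25 control cells above the mimic median. By run, ICM-like control cells had 175.4 and 157.7 CPM and ICM-like mimic cells 82.8, 49.4 and 73.6 CPM, the last from 2 cells. In TE-like cells the ratio was 0.358 (interval 0.304 to 0.420; log2 -1.35), from 6 and 5 cells with a count. Over 15 alternative settings each, the log2 difference ran from -1.93 to -1.06 in ICM-like and from -1.68 to -0.76 in TE-like cells. With the classes by marker score it was -1.645 and -1.682. In ICM-like cells the summed ICM markers stood at 2148 CPM (control) and 2150 CPM (mimic), and in TE-like cells the summed TE markers stood at 10890 CPM (control) and 7437 CPM (mimic). Single ICM markers differed in ICM-like cells behind these equal sums. Fgf4 was past 2-fold higher in mimic cells, and Tdgf1 past 2-fold lower, at 400.5 CPM (control) and 32.87 CPM (mimic). This was 1 of 9 each way, near the 10.2% of all genes higher and 10.6% lower. In TE-like cells 2 of the 9 TE markers (Tspan8 and Elf3) were past 2-fold lower, where 7.08% of all genes were. Of the ICM markers there, 3 were higher (Fgf4, Gdf3 and Spic; 13.4% of all genes) and 2 lower (Tdgf1 and Pdgfra), and their sum stood at 549.9 CPM (control) and 755.8 CPM (mimic). Their part in the result was not tested.

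Cad was the other gene past 2-fold in both classes, higher in mimic cells. In ICM-like cells the median control cell was at 78.6 CPM and the median mimic cell at 208 CPM (pooled 86.99 and 193.1 CPM; log2 1.14, and 0.998 without the mimic run of 18 cells), and in TE-like cells at 69.01 and 132.8 CPM (pooled 54.86 and 143.2 CPM; log2 1.37). The ICM-like comparison of mimic with control thus had 1 of the 10 genes past 2-fold higher (10.2% of all genes) and 1 lower (10.6%), and the TE-like one 1 higher (13.4%) and 2 lower (7.08%). The second gene lower in TE-like mimic cells was Pnp, with 47.7 CPM (control) and 19.1 CPM (mimic) (log2 -1.28). That value rested on the control run of 24 cells, whose 7 TE-like cells had 68.7 CPM against 19.5 CPM in the 7 of the other run, and without it the difference was -0.03.

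The remaining genes differed less between classes than Upp1, and none was past 2-fold except in single alternatives. In control cells Uck1 was 1.387 without the run of 24 cells, and Cad was 1.019 without that of 15 cells. In mimic cells Dhodh was -1.579 without the run of 18 cells, and Dck was -1.143 by the mean log2 over cells. Tk1 was lower in ICM-like than in TE-like control cells, with median cells at 103.6 and 187.4 CPM (log2 -0.76 between the pooled levels, and -1.21 without the run of 24 cells), with 5 of 25 ICM-like cells above the TE-like median and all 14 TE-like cells above the ICM-like median. In mimic cells the difference was smaller (log2 -0.36). Umps stood at 276 CPM in ICM-like and 188 CPM in TE-like mimic cells (log2 0.55), and at 141.9 and 149.1 CPM in control cells. In ICM-like cells the mimic difference of Umps was 0.95, short of 2-fold, but 1.43 without the control run of 15 cells and 0.414 without that of 24 cells. Its ICM-like mimic runs of 7, 4 and 2 cells had 289, 410 and 2.31 CPM.

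**Figure D4:**
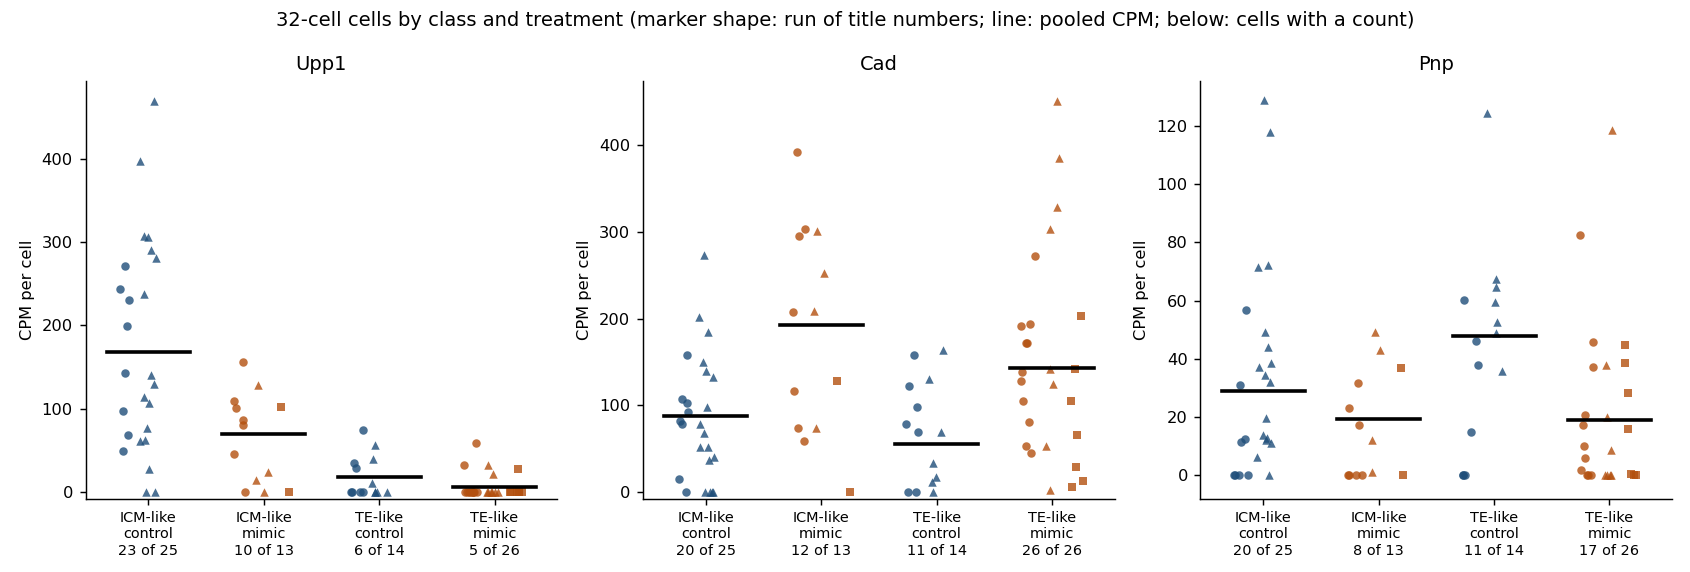
CPM of Upp1, Cad and Pnp in each 32-cell cell by class and treatment, with the run of title numbers as the marker shape, the pooled CPM as a black line and the cells with a count below. Among ICM-like cells, Upp1 reaches 470 CPM (control) and 156.1 CPM (mimic), and TE-like cells stay below 74.9 CPM.

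The order of the levels over the 4 groups differed from gene to gene. Upp1 ran from 32-cell control through 32-cell mimic and 8-cell control to 8-cell mimic cells, and the medians of neighbours after the first pair lay within the middle 50% of each other's cells. Neighbouring groups with overlapping counting intervals were the 2 8-cell groups for Uck1, the 2 32-cell groups for Uck2 and Dhodh, 8-cell control and 32-cell mimic cells for Tk1 and Dck, and 8-cell and 32-cell control cells for Dck. For Cad, Tyms and Pnp, the 32-cell mimic and control groups were neighbours of which at least 1 median fell outside the middle 50% of the other.

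**Figure D5:**
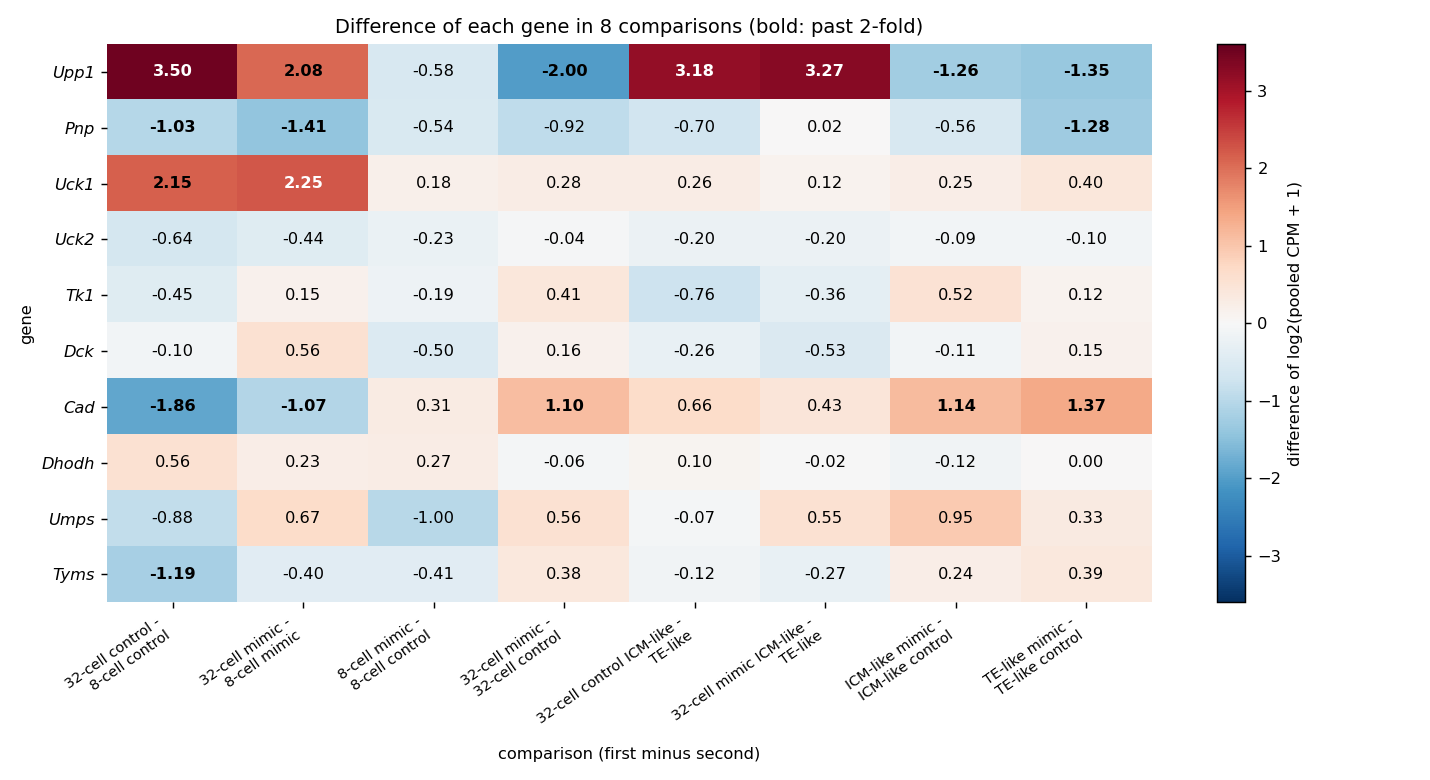
Difference of log2(pooled CPM + 1), first group minus second, for the 10 genes (rows) in 8 comparisons (columns), red where higher and blue where lower, in bold where past 2-fold. Upp1 is past 2-fold in 7 of the 8 comparisons, from -2.00 (32-cell mimic against control) to 3.502 (32-cell against 8-cell control), and Uck2, Tk1, Dck, Dhodh and Umps are past 2-fold in none.

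The same steps have other enzymes, and lists of them were compared with all genes. In the list of nucleoside salvage and phosphorolysis, 9 of 13 genes passed the level filter. In control cells 5 were past 2-fold higher at the 32-cell stage (Upp1, Uck1, Uckl1, Tk2 and Dguok) and 1 lower (Pnp), where 29% and 19.2% of all genes were, and the same 5 and 1 were named in mimic cells, where 28.4% and 17.9% were. Uckl1, a uridine-cytidine kinase-like gene, was at 0.0817, 5.50, 39.1 and 20.9 CPM in 8-cell control, 8-cell mimic, 32-cell control and 32-cell mimic cells. The mitochondrial kinases Tk2 (0.327, 2.13, 20.5 and 23.8 CPM) and Dguok (9.31, 13.3, 43.8 and 46.0 CPM) followed the same order of stages. Upp1, Uck1, Uckl1 and Tk2 passed the filter through their 32-cell levels alone, so they could not have appeared among the genes without a difference, and the count of 5 supports nothing about the list. Between the treatments at the 32-cell stage, 0 of the 9 were past 2-fold higher and 1 (Upp1) was lower (7.48% and 5.35% of all genes). In ICM-like cells Uckl1 was lower as well (10.6% of all genes), with 42.1 CPM (control) and 6.98 CPM (mimic). At the 8-cell stage 2 of the 9 (Uckl1 and Tk2) were past 2-fold higher with the mimic and 0 lower (8.28% and 8.2% of all genes), from the low levels given above. Between the classes of mimic cells Uckl1 was past 2-fold lower in ICM-like cells (6.98 against 26.8 CPM). Upp2, the second uridine phosphorylase, had 0 counts in every cell.

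In the list of de novo synthesis and the steps from UMP to CTP, 8 of 10 genes passed, and Cad was the single gene past 2-fold in the stage comparison of control cells (lower; 19.2% of all genes) and in the 32-cell treatment comparison (higher; 7.48%). The CTP synthase Ctps2, which is X-linked, was past 2-fold higher between the mimic stages, and Cad was past 2-fold lower. In that comparison 28.4% of all genes were higher and 17.9% lower. Ctps2 was at 9.12 CPM in 8-cell and 65.6 CPM in 32-cell mimic cells. It was past 2-fold lower in 8-cell mimic than in 8-cell control cells (21.3 CPM), where 8.2% of all genes were lower. In TE-like cells Ctps2 had 22.6 CPM (control) and 65.7 CPM (mimic), where sex transcripts differed as given above. Ctps2 and Cad were past 2-fold higher in TE-like mimic cells, where 13.4% of all genes were. All 10 genes of thymidylate and deoxynucleotide supply passed. At the 32-cell stage 0 of them were past 2-fold either way between treatments, and the stage comparison in control cells had 1 higher (Rrm1, a subunit of ribonucleotide reductase, from 261 to 548.5 CPM) and 4 lower (Tyms, Dctd, Rrm2b and Samhd1), where 29% of all genes were higher and 19.2% lower. Rrm2b and Samhd1, a subunit of the reductase and an enzyme that degrades deoxynucleotides, were also past 2-fold lower between the mimic stages (17.9% of all genes). Both were higher in ICM-like than in TE-like control cells (Rrm2b 21.3 and 3.12 CPM, Samhd1 10.32 and 0.288 CPM; 13.3% of all genes) and higher in TE-like mimic than in TE-like control cells (13.4%).

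Genes of DNA replication were set beside Tk1 and Tyms, whose transcripts are made around S phase. Of 10 such genes, 9 were lower and 1 higher in 32-cell mimic than in control cells, with a median of -0.70 against 0.02 over all genes. 3 were past 2-fold lower, where 5.35% of all genes were: Mcm4, a helicase subunit (590.5 and 245 CPM in control and mimic cells), and the cyclins Ccne1 (106.8 and 29.09 CPM) and Ccne2 (72.1 and 32.3 CPM). Within the classes the median of the 10 was -0.22 in ICM-like cells (2 past 2-fold lower, Mcm4 and Ccne1; 10.6% of all genes) and -0.85 in TE-like cells (4 lower, with Cdc6 and Ccne2 as well; 7.08%). In the 8-cell treatment comparison 1 was past 2-fold higher (Ccne2; 8.28%) and 0 lower. Between the stages 2 were higher in control cells (Mcm4 and Ccne2) and 2 in mimic cells (Mcm5 and Mcm7), while Cdc6 and Ccne1 were lower in both, where 29% and 19.2% (control) and 28.4% and 17.9% (mimic) of all genes were. Between ICM-like and TE-like cells, Ccne2 was lower in control cells (9.53% of all genes), and in mimic cells Ccne2 was higher (6.9%) and Ccne1 lower (10.3%). Tk1 (0.41) and Tyms (0.38) differed in the opposite direction from that median in the 32-cell treatment comparison.

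The genes whose values over cells were most like those of Upp1 were then ranked among all genes past the filter by Pearson's r of log2(CPM + 1). Over all cells these were Spp1 (0.669), Sox2 (0.653), Fndc3a (0.626), Adgre5 (0.574) and Fn1 (0.562), against a median r of 0.0484 over 8276 genes. Over the 78 32-cell cells they were Spp1 (0.643), Pecam1 (0.628), Glrx (0.611), Tdgf1 (0.602) and Fndc3a (0.592). Spp1 encodes a secreted phosphoprotein, Sox2 a transcription factor of the ICM, and Tdgf1 is among the 9 ICM markers used to name the classes. Each of the 5 in the second set was higher in ICM-like than in TE-like cells, for example Spp1 at 1242 and 111.6 CPM in control cells. The cells share runs, depth and class, and no p is given.

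None of the other 9 genes followed Upp1. Their r with Upp1 ran from -0.191 (Tyms) to 0.244 (Uck1) over all cells and from -0.178 (Tk1) to 0.157 (Uck2 and Dhodh) over the 32-cell cells. Among the 45 pairs of the 10 genes, the median r was 0.0221 in 8-cell control, 0.00726 in 8-cell mimic, -0.0200 in 32-cell control and 0.0725 in 32-cell mimic cells, and no pair was past 0.5 in size in any group. The pair lowest in r was Upp1 with Tk1 in both control groups (-0.363 and -0.426), and r of this pair was 0.0212 and 0.0627 in the mimic groups. In counts as sparse as these, values of this size are a description only.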

How the data were processed

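Per the labels, reads of single Smart-seq2 cells were checked with FastQC, aligned to mm10 (GRCm38) with STAR (version 2.5.1b) and quantified with RSEM (version 1.3.0). What the authors deposited were expected counts of each gene in each cell, without normalisation, and all were whole numbers. The study's filter for cells (at least 3000 genes and under 10% mitochondrial counts) removed 0 cells, and 0 pairs of cells held identical values. 13 mitochondrial genes were left out. The counts of each group were summed and set per 1000000. A pseudocount of 1 CPM, a mean of at least 10 CPM over the 4 groups and a limit of 2-fold were used.

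Each of the 4 groups was 1 sample, so no test was run. The 32-cell classes came from Seurat (version 5.3.0; R version 4.3.3) with 2000 variable genes, 25 principal components and a resolution of 0.6. Runs are series of title numbers within 1 group with steps of at most 5. Genes were named as follows: all 10 members, genes of the wider lists past 2-fold, and the 5 genes most like Upp1. The members and lists were chosen with earlier results of these data known. No doublet caller was run on these picked cells, and edgeR (version 4.0.16) gave TMM factors for an alternative. Positions and lengths are from GENCODE M21.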

Additional observations from a re-analysis of the deposited data

Results flagged for a closer look

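Tyms differed between treatments in opposite directions at the 2 stages. The mimic minus control difference in log2(pooled CPM + 1) was -0.408 at the 8-cell stage and 0.382 at the 32-cell stage. The single pair of runs at the 8-cell stage lay below 0 (-0.32) and all 6 pairs at the 32-cell stage lay above 0. In 8-cell cells with more Y-linked counts the difference was 0.265, so the 8-cell direction turned there. With the run of 2 control cells alone the 8-cell difference was -1.199. Differences of this size were common: the median absolute difference over all genes was 0.403 at the 8-cell and 0.369 at the 32-cell stage. Umps also lay on opposite sides of 0 and further apart (-0.996 and 0.558), with 1 of its 6 32-cell pairs of runs below 0. The difference between the stages was not tested, since each group is 1 sample. Dose, stage and, at the 32-cell stage, sex transcripts go with the groups, and their part in the result was not tested.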

How the results depend on the processing

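The counts of genes past 2-fold were recomputed under each alternative. The 8-cell mimic comparison moved most, from 0 genes to 1 with TMM factors, a pseudocount of 0.1 CPM, a limit of 1.5-fold or without each gene's highest cell, to 2 with the mean log2 over cells and to 7 in cells with more Y-linked counts. That last setting had 7 control and 8 mimic cells. Without 1 run the count ran from 1 to 5. The 32-cell mimic comparison went from 2 to 1 with thinned cells. Cad also fell short there without the mimic run of 12 cells (0.83). Pnp, not called in the main setting, was past 2-fold in 4 of 13 alternatives, at -1.387 without the control run of 15 cells. ICM-like against TE-like control cells went from 1 to 4 with the limit of 1.5-fold, and from 2 to 3 without 1 run. The same in mimic cells went to 2 with the mean log2 over cells, and from 1 to 2 without 1 run. TE-like mimic against control cells went from 3 to 1 with a pseudocount of 10 CPM. Without 1 run, 32-cell against 8-cell control cells ran from 3 to 5 and ICM-like mimic against control cells from 2 to 4. The share of all genes past 2-fold is not set beside these counts, so nothing is read from them about the 10 genes. The causes were not tested.

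4 called differences turned. Without the run of 28 8-cell control cells, which leaves 2 cells, the stage differences in control cells were -0.395 for Uck1, 0.023 for Cad and 0.053 for Pnp, while at the other end of the runs left out they reached 2.902, -1.944 and -2.25. With 8-cell cells of more Y-linked counts, Pnp was 0.159 in the mimic stage comparison, although all 32-cell mimic cells had Xist counts. The 8-cell mimic cells with Xist counts had 56.1 CPM of Pnp, against 19.1 CPM in 32-cell mimic cells. TMM factors moved the median of all genes from 0.202 to 0.076 between the mimic stages and turned no called difference. Each Upp1 difference but that at the 8-cell stage kept its sign in every alternative. No paired analysis was possible because each group is 1 sample and the result comes from no test. The title numbers 63 to 86 recur in groups that differ in both stage and treatment.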

Other observations

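Of 7 transporters that carry nucleosides across membranes 4 passed the level filter, and in the stage comparison of control cells 2 were past 2-fold higher and 2 lower, where 29% and 19.2% of all genes were. In control cells Slc28a3, a concentrative carrier, went from 24.99 CPM at the 8-cell to 130.4 CPM at the 32-cell stage, and Slc29a1, an equilibrative one, from 40.5 to 105.7 CPM. Slc29a2 (26.9 to 9.72 CPM) and Slc29a3 (60.4 to 9.05 CPM) were the lower ones. With the mimic at the 32-cell stage Slc29a3 was at 31.0 CPM against 9.05 CPM in control cells, the single transporter past 2-fold (7.48% of all genes were higher). Between the mimic stages Slc28a3 and Slc29a1 were past 2-fold higher and Slc29a2 lower (28.4% and 17.9% of all genes), and at the 8-cell stage 0 of the 4 were past 2-fold between treatments. Within ICM-like cells Slc28a3 and Slc29a3 were higher with the mimic (10.2% of all genes), and within TE-like cells Slc29a2 and Slc29a3 (13.4%). In control cells Slc28a3 stood at 53.6 CPM in ICM-like and 233 CPM in TE-like cells, past 2-fold lower, and Slc29a2 was past 2-fold higher in ICM-like cells (9.53% and 13.3% of all genes).

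Of the nucleotidases and breakdown enzymes, 4 of 9 passed. Nt5c3b, the single one past 2-fold lower between the stages in control cells (19.2% of all genes), went from 449 to 64.2 CPM and from 317 to 63.6 CPM in mimic cells, and 0 of the 4 were past 2-fold between treatments at the 32-cell stage (7.48% of all genes higher, 5.35% lower). Nt5c3 was past 2-fold higher with the mimic at the 8-cell stage (23.9 CPM without and 58.9 CPM with it; 8.28% of all genes) and, with Nt5c3b, lower between the mimic stages (17.9%). In ICM-like against TE-like cells Nt5c2 was higher in both treatments (control 26.7 and 11.4 CPM, mimic 50.09 and 20.1 CPM), and Nt5c3 in control cells (13.3% of all genes in control, 6.9% in mimic cells). Dpyd and Upb1, which degrade uracil, had 0 counts in any cell. Of 6 genes of purine salvage 3 passed: Aprt went from 438 to 136.4 CPM between the stages in control cells (19.2% of all genes were past 2-fold lower) and was lower in mimic cells as well, Adk went from 13.8 to 30.9 CPM (29% higher), and 0 of the 3 were past 2-fold between treatments at either stage (8.28% and 8.2% of all genes at the 8-cell, 7.48% and 5.35% at the 32-cell stage).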
